A study of Mus musculus with 2 samples.

Results

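CpG islands are short stretches of DNA rich in the dinucleotide CG, and most of them carry almost no methyl groups on their cytosines. The islands described here were those in which methylated and unmethylated reads were about equally common in cultured mouse muscle cells. They were chosen by their measured levels: an autosomal island was a member when its methylated share of reads lay between 35 and 65% on each strand in each of 2 libraries. An island had to hold at least 10 cytosines read 5 or more times in both libraries, and cytosines inside the recognition sites of the restriction enzymes (MspI, CCGG, and TaqI, TCGA) were left out. Of 18317 islands with enough cytosines, 1146 were members, and 8 of these lay at known imprinted loci. A further 1138 lay elsewhere. The 18317 islands came from 71002 islands computed on the autosomes of GRCm38 by length (200 bp or more), GC content (50% or more) and a ratio of observed to expected CpG of 0.6 or more.

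In imprinted genes, only the copy inherited from a given parent is normally expressed. Such genes are controlled by differentially methylated regions (DMRs), where the DNA of one parental chromosome is methylated and the other is not, so that reads from both chromosomes together give an intermediate level at every cytosine. The zinc finger protein ZFP57 binds the methylated copy at many of these regions and helps to keep it methylated in the early embryo. An intermediate level can also arise where separate cells carry different patterns, or where a methylated and an unmethylated stretch lie inside the same island. A bulk measurement of reads per cytosine does not tell parental copies or cells apart.

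Both libraries came from mouse C3H myoblasts that had been differentiated into myotubes, the multinucleate muscle cells formed by fusion. The cells were transfected with a control short interfering RNA (siCon) or with one against the long noncoding RNA H19 (siH19), itself the product of an imprinted gene, and genomic DNA was taken 48 h later. The assay was reduced representation bisulfite sequencing. Restriction enzymes enrich CpG-rich fragments, and bisulfite converts cytosines without a methyl group, which then appear as T in the reads, whereas methylated ones appear as C. There was 1 library per group, so any difference is between 2 libraries and a difference between cultures cannot be told apart from the effect of the siRNA.

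The siCon library held 5453019 cytosines with a median of 12 reads, and the siH19 library held 5266846 cytosines with a median of 13 reads. Members had a median of 20 cytosines, with a median of 25 reads per cytosine in siCon and 26.9 in siH19. The most deeply read member, at Sfi1, had 452 reads per cytosine in siCon, and Mir6546 and Palm3 also exceeded 100 (221 and 111). H19 RNA is not measured by this assay, so the knockdown could not be checked in these libraries. Islands were named by the gene they overlap or, failing that, by the gene with the nearest transcription start.

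The levels of the table fell mostly near 0, and members occupied a sparse middle. Of all 18317 islands, 55.1% were under 10% methylated and 5.69% were over 90%. A pooled level between 35 and 65% was found in 2224 islands, and 1146 of these met the bounds on each strand in each library as well. The median member was at 49.9% in siCon and 50.5% in siH19, as the bounds require.

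**Figure D1:**
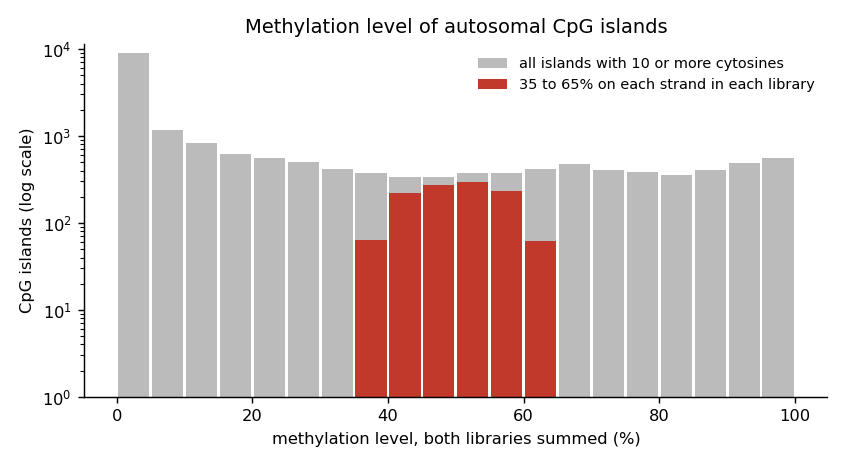
Number of autosomal CpG islands (log axis) by methylation level, reads of both libraries summed, in steps of 5 percentage points. Grey bars are all 18317 islands, red bars the 1146 members, which lie inside 35 to 65% by the rule.

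Short stretches of the islands show the arrangements behind an intermediate level. For each island, the 100 bp with the lowest and the highest mean CpG level were taken among stretches with at least 5 measured CpGs, and capitals mark the measured CpGs. Both strands and both libraries were summed at each CpG. Sequences are from RefSeq GRCm38, plus strand, 5′ to 3′.

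The Gnas island in the imprinted Gnas cluster (chr2:174299570-174301139) was chosen because it was the evenest member with 20 or more cytosines. Its lowest stretch, chr2:174300083-174300182, held CpGs between 31.2 and 39.1%, and its highest, chr2:174299993-174300092, held CpGs between 38.1 and 47.7%.
Gnas, lowest stretch: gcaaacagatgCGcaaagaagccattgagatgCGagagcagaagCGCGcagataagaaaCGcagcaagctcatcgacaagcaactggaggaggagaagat
Gnas, highest stretch: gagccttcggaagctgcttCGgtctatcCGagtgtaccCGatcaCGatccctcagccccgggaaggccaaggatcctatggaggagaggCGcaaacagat

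Trps1, away from imprinted loci, had the smallest spread among members of that kind with 20 or more cytosines. CpGs of its lowest stretch, chr15:50869752-50869851, ran from 26.9 to 62.8%, and those of its highest, chr15:50869644-50869743, from 54.1 to 70.2%.
Trps1, lowest stretch: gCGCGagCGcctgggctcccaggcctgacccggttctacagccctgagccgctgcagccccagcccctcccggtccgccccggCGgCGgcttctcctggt
Trps1, highest stretch: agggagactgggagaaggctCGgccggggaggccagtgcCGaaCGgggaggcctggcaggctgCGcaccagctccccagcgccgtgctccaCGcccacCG

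Hspa2, at a pooled level of 50.2%, shows a split arrangement. Its lowest stretch, chr12:76404477-76404576, held CpGs between 0.481 and 14.5%, while its highest, chr12:76405218-76405317, held CpGs between 95.7 and 98.9%.
Hspa2, lowest stretch: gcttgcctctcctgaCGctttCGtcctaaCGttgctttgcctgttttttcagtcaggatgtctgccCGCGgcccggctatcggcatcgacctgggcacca
Hspa2, highest stretch: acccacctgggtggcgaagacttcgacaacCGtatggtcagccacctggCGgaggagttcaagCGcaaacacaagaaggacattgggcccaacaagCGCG

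Grb10 is an imprinted locus whose member combined intermediate and high stretches. The lowest stretch, chr11:12037549-12037648, held 10 CpGs between 23.7 and 47.8%, and the highest, chr11:12037244-12037343, held 9 between 77.3 and 95.5%.
Grb10, lowest stretch: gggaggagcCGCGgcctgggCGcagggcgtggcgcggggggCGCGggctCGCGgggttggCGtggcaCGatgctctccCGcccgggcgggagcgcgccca
Grb10, highest stretch: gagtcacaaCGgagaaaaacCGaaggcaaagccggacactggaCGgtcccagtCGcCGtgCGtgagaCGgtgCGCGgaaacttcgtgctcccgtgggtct

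The 8 members at imprinted loci came from 6 loci: the Gnas cluster with 3 islands, and Nap1l5, Igf2, Cdkn1c, Grb10 and Dlk1 with 1 each. Levels below are the methylated share of reads in each library with the Wilson 95% interval, which covers counting error only. It takes the reads at each cytosine as separate, although 1 read can cover several cytosines, so it can be too narrow.

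In the Gnas cluster, which encodes the stimulatory G protein alpha subunit and several imprinted transcripts from alternative starts, all 3 members were close in level between libraries. The island at chr2:174284010-174285499, at an annotated Gnas start, was at 41.4% (39.6 to 43.3) in siCon and 38.7% (36.9 to 40.6) in siH19 over 84 cytosines. The neighbouring island at chr2:174285544-174286569, nearest to the start of Gm27899, was at 48.9% (46.2 to 51.6) and 43.2% (40.1 to 46.5) over 51 cytosines. The island at chr2:174299570-174301139, in an exon, was at 38.9% (36.9 to 40.9) and 38.0% (35.8 to 40.2) over 58 cytosines. All 3 were even inside: their cytosines had a standard deviation (SD) of 13.2, 13.4 and 5.66 percentage points. In the last of them every cytosine lay between 25 and 75%. The variance among its cytosines was 0.765 of that expected if each cytosine had been read separately. Neighbouring cytosines share reads, which can lower this ratio.

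Nap1l5, a retrotransposed imprinted gene, was at 59.8% (55.1 to 64.3) in siCon and 60.8% (55.5 to 65.8) in siH19. All of its 17 cytosines lay between 25 and 75%, with an SD of 10.0 points.

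The other members at imprinted loci were uneven. Igf2, which encodes the growth factor insulin-like growth factor 2 and shares control elements with H19, was at 42.7% (40.5 to 44.9) in siCon and 39.4% (37.7 to 41.2) in siH19 over 81 cytosines at chr7:142658223-142659973. Its cytosines had an SD of 29.1 points, with 34.6% of them under 25% and 14.8% over 75%. Cdkn1c, a cyclin-dependent kinase inhibitor, was at 40.6% (38.8 to 42.4) and 40.5% (38.8 to 42.2) over 164 cytosines, with an SD of 24.5 points. Dlk1, a transmembrane relative of Notch ligands, was at 57.9% (53.7 to 62.1) and 54.2% (50.3 to 58.0) over 18 cytosines of an exonic island, with an SD of 24.7 points. Grb10, an adaptor protein that dampens growth factor signalling, was at 54.7% (52.3 to 57.1) and 56.1% (53.7 to 58.4) over 99 cytosines, with an SD of 25.6 points.

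Membership captured a minority of the islands at imprinted loci. The list held 21 loci, of which 19 had an island with enough cytosines. Of their 43 islands 8 (18.6%) were members, against 6.26% of all islands. Islands were assigned by overlap with or nearness to listed genes, so the 43 can include islands outside any DMR. Peg3 and Mest had no island with enough cytosines, with at most 6 and 8. Another 17 islands had all 4 strand levels between 20 and 75% without meeting the rule. Many of these lay just under its lower edge. The Airn promoter, from which the noncoding RNA that silences Igf2r is made, was at 35.5% in siCon and 35.1% in siH19, and only the minus strand of siH19, at 33.0%, fell outside. Peg10, a retrotransposon-derived imprinted gene, was at 31.9 and 33.7% at its promoter. Kcnq1ot1, the noncoding RNA of the Cdkn1c domain, was at 39.5 and 47.5%, with 33.5% on the siCon plus strand. The intronic Inpp5f promoter was at 51.1 and 64.5% and missed by its siH19 minus strand, at 65.3%.

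At the Igf2 and H19 locus, 3 of 4 computed islands had enough cytosines and all 3 lay at Igf2. Besides the member, the island at chr7:142660176-142661486 was at 26.1% in siCon and 20.9% in siH19, and an island in Gm49394 was at 33.4 and 33.7%. No measured island was named by H19.

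Islands of host genes inside imprinted loci lay apart from this group. The promoters of Commd1, Blcap, Inpp5f and the main Gnas transcript had every strand level under 10%. In contrast, Nnat, an imprinted gene inside the Blcap locus, was at 97.4% in both libraries.

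**Figure D2:**
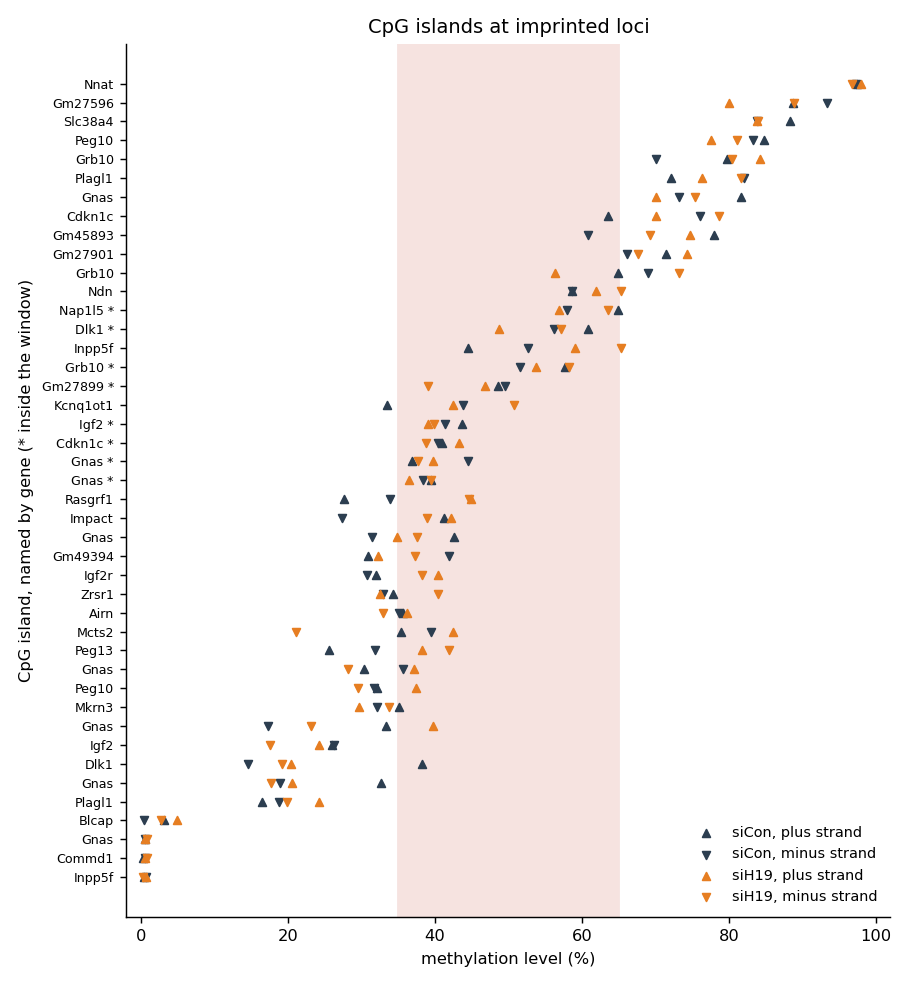
Methylation level of the 43 islands at imprinted loci on each strand in each library, ordered by mean level and named by gene, with the shaded band marking 35 to 65%. The 8 members (asterisks) lie inside the band, 17 islands straddle its edges or lie near it, and 4 lie under 10%.

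The hexamer that ZFP57 recognises, TGCCGC, was counted on both strands as letters in the islands. It was present in 7 of the 8 members at imprinted loci, with none in the Gm27899 island, and in 398 of the 1138 other members (34.97%). Of all 18317 islands 48.2% held it. Length differed between these sets, with a median of 1530 bp for members at imprinted loci, 618.5 bp for other members and 861 bp for all. Per kb of summed sequence there were 1.73 hexamers in members at imprinted loci, 0.801 in other members and 0.899 in all islands. All 43 islands at imprinted loci, members or not, had 1.76. Nap1l5 had the most per kb, with 5 hexamers in 848 bp (5.90 per kb), and Grb10 had 5 and the Gnas exonic island 4. In the following 100-bp stretches, which hold the most hexamers in their islands, capitals mark the hexamer or its reverse complement, at chr6:58906788-58906887 for Nap1l5 and chr2:174299606-174299705 for Gnas. The Gnas stretch is shown because it lies in the evenest island.
Nap1l5, hexamers: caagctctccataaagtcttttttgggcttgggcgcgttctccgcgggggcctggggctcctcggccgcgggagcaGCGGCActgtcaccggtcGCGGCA
Gnas, hexamers: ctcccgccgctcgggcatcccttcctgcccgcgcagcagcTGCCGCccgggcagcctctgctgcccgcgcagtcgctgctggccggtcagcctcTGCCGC

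Cytosine levels varied widely inside most members. The median SD among their cytosines was 24.4 points, and in the median member 63.3% of cytosines lay between 25 and 75%. In 302 members (26.4%) at least 75% of cytosines lay in that middle range, against 519 (2.83%) of all islands, a contrast that the choice by level itself produces. An SD under 15 points was found in 57 members (4.97%), 68.0% of all islands and 11.4% of other islands with a pooled level of 20 to 80%. A variance under 2 times that expected from separately read cytosines was found in 16 members (1.40%). Its share was 34.1% of all islands and 1.85% of the others at 20 to 80%. At least 50% of cytosines lay in the middle range in 863 members (75.3%), 13.7% of all islands and 42.8% of the others at 20 to 80%.

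After these values had been seen, islands were also ranked by evenness over a wider range. Among 2374 islands with a pooled level of 20 to 80% and at least 20 cytosines, 26 (1.10%) lay at imprinted loci. The 10 smallest SDs included 6 of those 26, and the 50 smallest included 10. The Gnas exonic island was lowest, followed by Plagl1 (6.20 points, pooled level 20.1%), a second Gnas island (7.17, 32.9%), Impact (8.23, 36.3%) and Airn (8.70, 35.3%). The median SD was 13.7 points at imprinted loci and 21.7 over all 2374. These figures are a description, and no test was made of them.

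**Figure D3:**
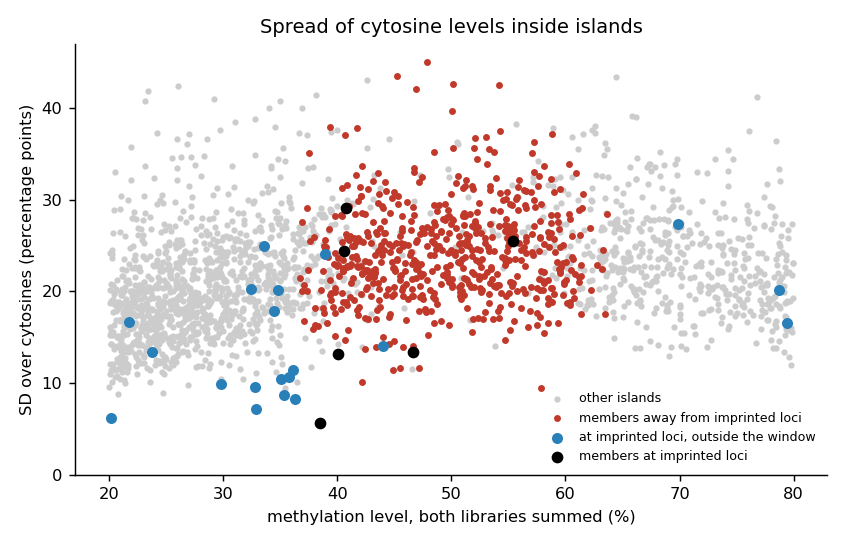
SD of cytosine levels inside an island (percentage points) against its methylation level (both libraries summed) for 2374 islands with a level of 20 to 80% and at least 20 cytosines. Members at imprinted loci are black, other members red, and islands at imprinted loci outside the window blue; blue and black points make up 6 of the 10 lowest.

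Away from imprinted loci, the evenest members with 20 or more cytosines lay at Trps1, Cspg4, Nrn1, Bmi1 and Hoxc12. Trps1, a zinc finger repressor mutated in a skeletal syndrome, was at 57.2% (53.5 to 60.7) in siCon and 58.5% (55.01 to 61.9) in siH19, in an intron, with an SD of 9.50 points. Cspg4, the proteoglycan NG2, was at 42.1 and 42.3% at its promoter, with an SD of 10.1 points. Nrn1, which encodes neuritin, was at 44.2 and 45.3%, but its siCon strands differed, with 62.3% on the plus and 37.1% on the minus strand. Bmi1, a subunit of Polycomb repressive complex 1, was at 43.0 and 47.7% (SD 11.6 points). The Hoxc12 island had an SD of 11.6 points as well, at 51.9% (48.3 to 55.5) in siCon and 38.9% (34.4 to 43.7) in siH19.

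Dip2c and Mb, with fewer than 20 cytosines, had smaller SDs than Trps1, and they are named after their values were seen. The Dip2c island, in an exon, was at 47.7 and 47.8% over 14 cytosines with an SD of 4.11 points. Mb, which encodes the muscle oxygen carrier myoglobin, was at 58.9 and 59.0% over 10 cytosines near its start, with an SD of 7.01 points. Every cytosine of both lay between 25 and 75%. Peg12, an imprinted gene that was not on the list used here, was a member too: 45.8% in siCon and 43.8% in siH19 over 67 cytosines, with an SD of 14.6 points.

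At the other extreme stood islands split into a methylated and an unmethylated stretch. Hspa2, a testis-enriched heat shock protein, was at 49.7% in siCon and 50.6% in siH19, yet 4.62% of its 130 cytosines lay between 25 and 75%. Nsd1, a histone H3 lysine 36 methyltransferase, was at 41.5 and 48.3% with 39.4% of its cytosines under 25% and 44.4% over 75%. Fzd2, a Wnt receptor, had the largest SD of these, 45.0 points, with 35.2% of cytosines under 25% and 58.3% over 75%. Pearson's r between libraries over the cytosines of 1 island was 0.980, 0.978 and 0.989, cytosines being neither independent nor replicates. These 3 islands were chosen for a large SD, which by itself raises r. At the even islands of Trps1, Cspg4, Nrn1, Bmi1 and Hoxc12, r ran from -0.13 to 0.64.

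**Figure D4:**
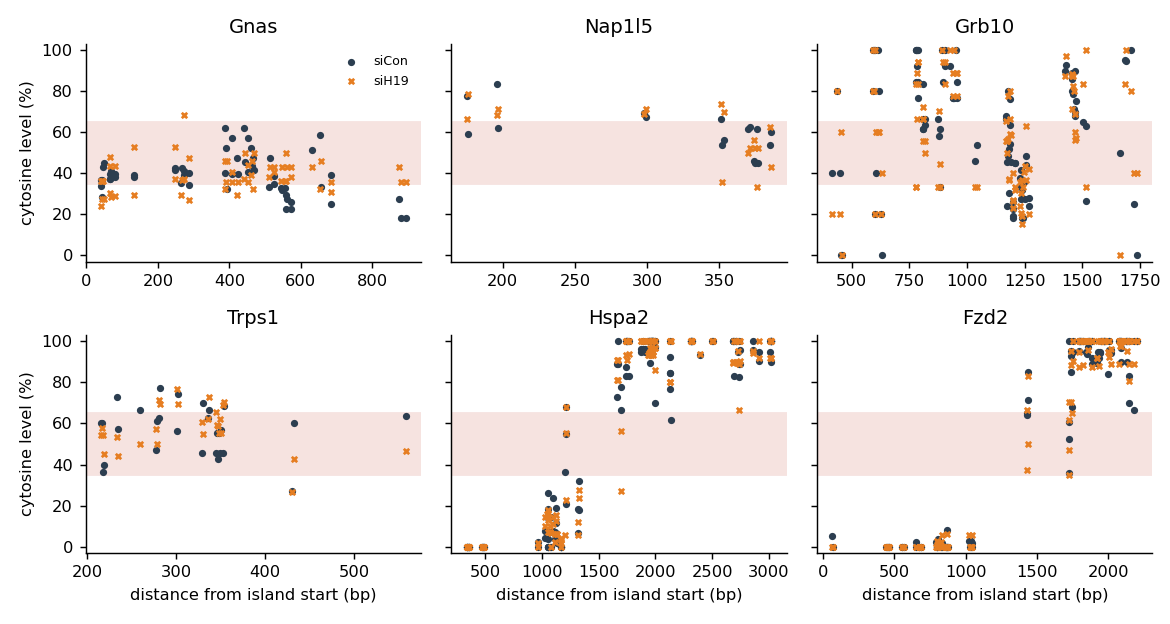
Level of each cytosine in siCon (dark points) and siH19 (orange crosses) against distance from the island start in bp for 6 members, with 35 to 65% shaded. Gnas, Nap1l5 and Trps1 stay near the band, Grb10 spreads over the range, and Hspa2 and Fzd2 switch from low to high along the island.

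The members with the most measured cytosines were between 1599 and 3601 bp long, and all but that at Lin28b lay at a promoter. Pcdh8, a protocadherin, led with 277 cytosines and was at 41.0% (39.9 to 42.0) in siCon and 41.5% (40.6 to 42.5) in siH19. Insm2, a zinc finger factor, was at 59.3 and 61.3% over 216 cytosines, as many as Nsd1. Nkx2-4 was at 48.0 and 51.5% and Hoxd11 at 45.9 and 47.1%; both are homeobox transcription factors. Shisa6, a regulator of glutamate receptors, was at 56.1 and 62.7%, a difference of 6.61 points on summed reads and 1.08 with the same weight for every cytosine. For Nsd1 these were 6.75 and -0.12 points. Bmp2, a bone morphogenetic protein, was at 56.9 and 58.4%. The Lin28b island, in an intron of this regulator of let-7 processing, was at 41.0 and 42.6%. These islands had an SD between 20.2 and 24.9 points, apart from Nsd1 at 43.5.

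Placement was compared with the whole table and with the 3829 other islands with a pooled level of 20 to 80%. An annotated transcription start lay in or within 1 kb of 39.5% of members, 68.8% of all islands and 39.9% of the other islands at 20 to 80%. Exons held 18.5% of members (11.1% of all, 15.1% of those at 20 to 80%), introns 12.4% (7.57 and 14.8%) and intergenic sequence 29.6% (12.5 and 30.1%). Processed pseudogenes named 13.7% of members, 4.87% of all islands and 12.2% of those at 20 to 80%, in part only as the nearest start. An annotated processed pseudogene overlapped 3.40% of members, 1.54% of all islands and 3.34% of those at 20 to 80%. Repeats or low-complexity sequence, as soft-masked in the reference, covered more than 50% of the island in 24.2% of members, 8.99% of all islands and 28.6% of those at 20 to 80%. Reads in copies of a repeated sequence can be assigned to the wrong copy, and the part this has in the members' levels was not tested.

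Members were 6.26% of all islands, and the counts of the gene lists are given beside that background. Homeobox and Pax genes, with neighbouring antisense RNAs, named 41 members (3.58%), 331 of all islands (1.81%) and 2.66% of other islands with a pooled level of 20 to 80%. They included Hoxa6, Hoxb4, Hoxb5, Hoxd1, Hoxd10, Hoxd11 and Hoxd13, as well as Lhx1, and Isl2 of motor neurons. Evx2, beside the Hoxd cluster, was at 51.6% in siCon and 52.1% in siH19 over 119 cytosines, and Irx5 at 54.9 and 54.6% over 136. Wnt and Bmp pathway genes named 8 of 85 islands (0.698% of members, 0.464% of all islands, 0.601% of the others at 20 to 80%). Among them were Fzd10 at 59.6 and 60.8% and Wnt1 at 41.3 and 41.9%. The zinc finger list named 12 of 370 (1.05% of members, 2.02% of all islands, 0.888% of the others at 20 to 80%). All 12 had Zfp symbols, and the zinc finger members Trps1 and Insm2 were not counted. Germline genes named 2 of 15 (0.175% of members, 0.0819% of all, 0.104% of the others at 20 to 80%). These were Asz1 at 52.2 and 47.9% and Zfp42 at 60.7 and 56.6%. Clustered protocadherins named 1 of 20 (0.0873% of members, 0.109% of all, 0.340% of the others at 20 to 80%), Pcdha1.

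The muscle list named 2 of 35 islands, 0.175% of members, 0.191% of all islands and 0.392% of the other islands at 20 to 80%. Pax3, a transcription factor of muscle precursors, was at 60.6% in siCon and 54.96% in siH19, and Myh4, a fast myosin heavy chain, at 47.3 and 45.1%. The member at Mb, described above, was not counted in this list. Titin, the giant sarcomere protein, was not on the list either but had 3 members at Ttn, between 44.5 and 48.2% methylated with both libraries summed. Fgfr2, Foxp2 and Nhlh2 had 3 members each as well. In all, 1082 gene names covered the 1146 members, and 31 neighbouring pairs lay under 5000 bp apart, so these are not independent loci.

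On average, cytosines around members had levels near those inside, but single flanks ran from low to high. Of 332 members with at least 5 cytosines at 100 to 2000 bp outside their edges, 95 (28.6%) had a flank level of 35 to 65% in both libraries. The quartiles of the flank level in siCon were 26.3 and 70.6%, with the Nrn1 island at 2.41% and the more even of 2 Hoxc12 islands at 95.3%. Other islands with a pooled level of 20 to 80% had a median flank level of 44.3% in siCon and 46.0% in siH19, against 45.5 and 45.8% for members. At 250 to 500 bp outside the edges of members away from imprinted loci, cytosines in no computed island averaged 50.3%, against 49.9% inside the islands, and at 1000 to 2000 bp they averaged 43.8%. The remaining islands of the table, most of them with low levels, averaged 12.4% inside, 39.6% at 250 to 500 bp and 57.2% at 1000 to 2000 bp. Cytosines outside the members were not used to choose them. Inside members, restriction-site cytosines, which the rule left out, stood at 67% in siCon and 68.9% in siH19, above the 48.3 and 49.6% of the other cytosines. This was not particular to members. In the rest of the table, restriction-site cytosines stood at 53.3% in siCon and 53.8% in siH19, and other cytosines at 9.03 and 9.21%. Filling in of cut ends during library construction can set the level of such cytosines, and its part here was not tested.

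At the edges of the window, membership turned on small differences. Just inside the lower edge, Gm8100, Scn8a and Gm26081 each had a strand at 35%. Just outside it, AC113491.1 and Stox2 had a strand at 34.96% and Prickle2 another at 34.96%. Just inside the upper edge, Otop2, Gm28893 and A1cf each had a strand at 65%, and just outside it Lrfn1, Gltpd2 and Kifc3 had strands at 65.01, 65.02 and 65.05%.

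Levels in the siH19 library were compared with those in siCon to ask whether intermediate islands shifted after H19 knockdown. The rule bounds both levels, so the differences inside the islands are a description. The median difference, siH19 minus siCon, was 0.72 percentage points over members and 0.058 over all islands, and 829 members (72.3%) differed by less than 5 points. The extremes were -17.4 and 17.5 points. A Fisher's exact test on reads summed over each island, with Benjamini-Hochberg adjustment over all islands, called 44 members at an adjusted p under 0.05 and 10 points or more. Of these 25 were higher and 19 lower in siH19. The same call was made in 2.07% of all islands (1.23% higher, 0.841% lower), and nothing is read from the members' count because the rule used these levels. No member at an imprinted locus was called.

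Summed reads give more weight to deeply read cytosines, so an island with low and high stretches can differ between libraries because depth is spread differently along it. Each cytosine was therefore also compared with itself, in a Cochran-Mantel-Haenszel test with cytosines as strata. This was added after the data had been seen, and it takes cytosines covered by the same reads as separate. It called 9 members, 6 higher and 3 lower, all among the 44. The background was 0.595% of all islands (0.349% higher, 0.246% lower). For 3 of the 44 the difference turned its sign. Fzd2 differed by 14.1 points on summed reads (42.2% in siCon, 56.4% in siH19) and by -0.59 points cytosine by cytosine. Igf2, which was not called on summed reads, gave -3.26 points summed and 4.81 points by cytosine. In the test by cytosine its adjusted p was 0.0048 (Benjamini-Hochberg, all 18317 islands), the only value under 0.05 among members at imprinted loci. On summed reads its adjusted p by Fisher's exact test was 0.112. Igf2 was not called by cytosine because the difference was under 10 points. The rule used these levels and Igf2 is singled out for its value, so nothing is read from it. The other 7 members at imprinted loci lay between -2.35 and 0.56 points by cytosine.

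Prdm8, a transcriptional regulator of the PRDM family, had the largest difference of any member on summed reads. Its promoter island, chr5:98181121-98181694, was at 44.4% (39.95 to 48.9) in siCon and 61.9% (58.8 to 64.99) in siH19. These intervals count shared reads at several cytosines, and the island was picked for its difference, so nothing is read from their distance. The difference was 17.5 points on summed reads and 18.2 points by cytosine over 16 cytosines. By cytosine the difference at Pafah1b1-ps2 was larger, at 18.9 points. In the stretch shown, chr5:98181452-98181551, which had the lowest mean level, each of the 5 capitalised CpGs was higher in siH19, with 40.9% against 61.7% over all of them.
Prdm8, lowest stretch: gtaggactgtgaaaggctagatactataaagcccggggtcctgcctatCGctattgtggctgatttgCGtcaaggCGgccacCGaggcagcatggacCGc

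Among the other members called by both tests were a homeobox locus and islands outside any annotated gene. Higher in siH19 were Uncx, a homeobox gene, at 44.1% in siCon and 57.8% in siH19, and 1700025L06Rik at 50.7 and 61.4%. Gm8100 (42.0 and 54.2%), Gm11730 (39.7 and 53.5%) and Pafah1b1-ps2 (43.1 and 59.1%) were higher as well. The Pafah1b1-ps2 island overlapped no gene and lay 14156 bp from the start of that pseudogene. Lower in siH19 were an island nearest to Id1, an inhibitor of myogenic basic helix-loop-helix factors, at 57.7 and 47.6%, and Gm13180 at 56.2 and 42.7%. The third overlapped no gene and lay 123508 bp from the nearest start, that of Pudp, at 56.6 and 40%. Soft-masked sequence covered 98.1% of the Gm8100 island, 91.9% of that at Pafah1b1-ps2, 79.9% of that at Pudp and 83.1% of that at Gm13180. Rps19-ps5 (58.3 and 40.9%), Gm47353 (60.1 and 44.0%) and Gm35998 (42.9 and 58.4%) were called on summed reads but did not pass by cytosine. Their differences by cytosine were -12.6, -12.6 and 7.23 points.

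**Figure D5:**
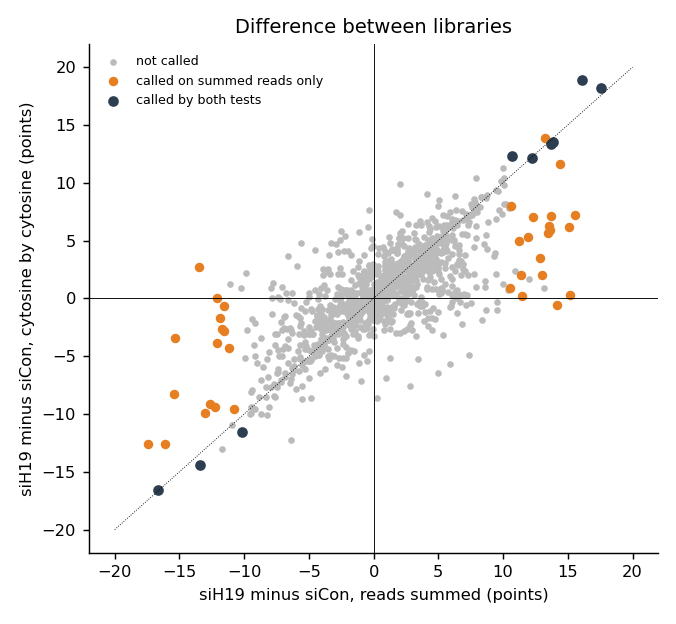
Difference between libraries (siH19 minus siCon, percentage points) of the 1146 members on summed reads against the difference cytosine by cytosine. The dotted line marks equal values; dark points are the 9 members called by both tests, and orange points the 35 called on summed reads only.

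The rule did not use the flanks. They lie beside the islands and had similar levels on average, so the comparison is not independent of the choice of members. Cytosines 100 to 2000 bp outside an island and in no other island were summed, and 332 members had at least 5. Their median level was 45.5% in siCon and 45.8% in siH19, and their median difference was 0.31 points. On summed reads 32 member flanks were called, 17 higher and 15 lower, against a background of 9.11% of 5620 flanks (5.84% higher, 3.27% lower). The members' share, 9.64%, is near that background. By cytosine the background was 0.231% (0.178% higher, 0.0534% lower), and 2 member flanks were called, both higher in siH19. The flank of Six3, a homeobox gene, was at 13.7% in siCon and 35.4% in siH19 over 14 cytosines, with a difference of 16.0 points by cytosine. The flank of Lrp3, a receptor of the low-density lipoprotein receptor family, was at 43.2 and 45.8% on summed reads and differed by 10.6 points by cytosine. Inside these islands the libraries were closer, with 42.7 and 46.8% at Six3 and 56.6 and 60.0% at Lrp3. With 1 library per group these tests compare libraries, not conditions.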

How the data were processed

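CpG methylation in 2 libraries of mouse myotubes (siCon and siH19, 1 each, grouped by the sample labels) was analysed from the deposited cytosine tables. The authors mapped reads by Bismark (non-directional), trimmed filled-in nucleotides and took each level as C over C plus T, per their methods. The submitters' processing notes name mm10 and bcl2fastq 1.8.4. Duplicate removal was not given in the sources used here. The deposited files give methylated and total reads as text, used as raw counts, and a score on a per-thousand scale used only to check parsing, which it matched in 100% of entries. All 6041258 positions fell on CpGs of GRCm38. Genes came from GENCODE vM21 (55450 genes).

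Islands are the union of 200-bp windows that meet the thresholds. An island was at an imprinted locus when it overlapped a listed gene or lay within 15 kb of its start (40 kb for Rasgrf1). The members and gene lists were chosen with earlier results of these data known. Named islands are all members at imprinted loci, those with the most cytosines, the smallest and largest SD, the largest called differences, and those nearest the edges. Fisher's exact tests were two-sided. Tests were tried on simulated data at the real depths. In this simulation the summed test also called islands whose cytosine levels had been left unchanged. How depth was spread inside those islands was not measured. A Cochran-Mantel-Haenszel test by cytosine was therefore added after seeing the data. Each cytosine was simulated on its own, so the effect of reads shared between cytosines on these tests was not tried. Reads carry no molecular identifiers, so intervals cover counting error only. A read covering several cytosines was counted at each of them. The intervals, Fisher's tests and Cochran-Mantel-Haenszel tests take these counts as separate. Intervals can therefore be too narrow and p-values too small. Software was Python 3.11.15 with NumPy 2.4.6, pandas 2.3.3 and SciPy 1.17.1. Single-cytosine calls and the expression data of the study were not analysed here.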

Additional observations from a re-analysis of the deposited data

How the results depend on the processing

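The number of members followed the thresholds closely. Against 1146 members and 8 at imprinted loci, keeping restriction-site cytosines gave 2081 and 20, a window of 40 to 60% gave 520 and 1, and a window of 30 to 70% gave 1887 and 16. At least 20 cytosines per island gave 601 members, and stricter islands (500 bp, 55% GC) gave 387. The number did not move by more than 1.5 times with at least 10 reads per cytosine, with the same weight for every cytosine or without soft-masked cytosines (866, 1262 and 855 members). The count at imprinted loci stayed at 6 to 8 under the remaining settings. With at least 10 reads per cytosine, 346 members, against 302, had 75% or more of their cytosines at 25 to 75%.

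Calls between libraries depended on the test. Percentages in brackets are the share of all tested islands or flanks called. Against 44 member islands (2.07%), there were 22 with restriction-site cytosines kept (1.27%) and 2 by a quasi-binomial test (0.0601%). The same weight for every cytosine gave 12 (0.677%) and no minimum difference 154 (14.3%). The Cochran-Mantel-Haenszel test by cytosine gave 9 (0.595%). Leaving out the deepest 1% of cytosines gave 42 (2.06%). Against 32 member flanks (9.11%), there were 11 with flanks of 100 to 1000 bp (6.06%) and 61 with flanks of 200 to 5000 bp (12.0%). Equal weights gave 7 (1.62%), the test by cytosine 2 (0.231%) and the quasi-binomial test 0. The quasi-binomial test called 0 flanks of the 5620 in the whole table too. Among 29 named islands, the difference at Fzd2 turned from 14.1 points to -0.61 with equal weights and to -0.59 by cytosine. Among named islands not called, the sign turned at 11 with equal weights, among them Nsd1, Lin28b, Bmp2, Nrn1, Nap1l5, Igf2 and Grb10, and at 8 by cytosine. It turned at 1, Cdkn1c, with at least 10 reads per cytosine. No paired analysis was possible because each group has 1 library.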

Other observations

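The sex chromosomes were left out of the member set, since an X chromosome can be methylated on a single copy. By the same bounds 84 of 614 islands on X (13.7%) and 3 of 12 on Y were intermediate, against 1146 of 18317 on the autosomes. On X they included Bcor, a transcriptional corepressor, with 3 islands between 45.9 and 57.8% in siCon, and Pcsk1n, a proprotein convertase inhibitor, at 46.8% in siCon and 49.4% in siH19. Xk, a membrane transport protein, was at 45.8 and 39.4% over 79 cytosines. The labels do not give the sex of the cells, and none was inferred.

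Outside the window, Rasgrf1, an imprinted exchange factor for Ras, differed on summed reads, with 30.5% in siCon and 44.8% in siH19 over 82 cytosines of an island at its start. With the same weight for every cytosine the difference was 1.89 points. The Peg13 island gave 29.3 and 40.4% on summed reads and a difference of 3.85 points with equal weights. These 2 were the only islands of the 43 at imprinted loci called on summed reads. The same call was made in 2.07% of all 18317 islands.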
